A study of Mus musculus with 4 samples.

Results

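The p53 family (Trp53, Trp63, Trp73), the checkpoint kinase CHK2 (Chek2) and 6 genes of the p53 feedback and target network (Mdm2, Mdm4, Ppm1d, Ccng1, Sesn1, Rrm2b) were followed in RNA-seq of mouse germinal vesicle (GV) oocytes, the stage at which meiosis is arrested and the nucleus is intact. The 10 genes were chosen by name, and all rows of the deposited transcript table whose gene ID belonged to one of them were taken, which gave 10 of 17374 genes and 38 of 45505 listed transcripts. Values were summed per gene and are also given per transcript. Denuded oocytes came from non-primed females at postnatal day 16 on a C57/Bl6/DBA2J F1 hybrid background, and milrinone kept them from resuming meiosis. There were 2 libraries of control oocytes and 2 of oocytes that had received 5 Gy of γ-irradiation from a Cesium-137 source and were collected 24 h later, each library being made from pooled oocytes. The design text has control oocytes go straight to sequencing, and the time that control oocytes spent in culture is not given in the sources used here, so irradiation and time in culture cannot be told apart.

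In the oocyte the family member best known for DNA damage surveillance is TAp63, the p63 form with a transactivation domain, which is held inactive in resting oocytes and is activated through phosphorylation, with CHK2 as the priming kinase. p53 itself is stabilised after damage in most cells, induces its own inhibitor Mdm2, and is restrained further by Mdm4 and by the phosphatase WIP1 (Ppm1d). Much of this control acts on protein, which RNA-seq does not measure.

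In GRCm38.p6, Trp53 is on chromosome 11 (69580348 to 69591873), as are Ccng1 (40748552 to 40755309) and Ppm1d (85311254 to 85347071). Mdm2 (117688875 to 117710758) and Sesn1 (41810574 to 41908436) are on chromosome 10. Trp63 is on chromosome 16 (25683763 to 25892088), Trp73 on chromosome 4 (154056249 to 154139875) and Chek2 on chromosome 5 (110839800 to 110874140). Mdm4 is on chromosome 1 (132986105 to 133030587) and Rrm2b on chromosome 15 (37923952 to 37961119). Small RNA genes, pseudogenes or a long noncoding RNA overlap Mdm4, Trp73, Rrm2b and Trp63, and the strand setting of the counting is not given in the sources used here, so reads of such pairs could not be told apart.

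Trp63 and Trp73 each have 2 start sites, and the first coding exon differs between the TA form, which carries the transactivation domain, and the ΔN form, which lacks it. The listed transcripts were assigned to a form by the position of their start site. The first coding exons are shown because they differ between the forms. They are given 5′ to 3′ from the GENCODE vM21 transcripts of GRCm38, with the start codon in capitals. The Trp63 exons lie on the plus strand at chr16:25684290-25684351 (TA) and chr16:25802060-25802101 (ΔN), and the Trp73 exons on the minus strand at chr4:154104819-154104895 (TA) and chr4:154096894-154096932 (ΔN).
Trp63 TA: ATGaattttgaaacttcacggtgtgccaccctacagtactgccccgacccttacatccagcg
Trp63 ΔN: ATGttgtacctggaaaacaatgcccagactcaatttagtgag
Trp73 TA: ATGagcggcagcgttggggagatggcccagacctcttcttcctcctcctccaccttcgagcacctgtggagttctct
Trp73 ΔN: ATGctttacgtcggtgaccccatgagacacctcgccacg

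The promoters of the members were searched for the p53 half-site, the 10-base element that p53 family proteins bind in pairs, searched by its consensus in windows from 250 bases before to 50 bases after each RefSeq start site. Of the 10 genes, 8 had a window (11 windows in all), while Trp63 and Rrm2b had none. A half-site was found in 5 of the 11 windows, those of Mdm2, Ccng1, Ppm1d, Trp53 and Sesn1, against 8 of the 35 windows (22.9%) of the other p53 targets listed further on and 8.36% of all 32851 windows. The consensus is its own reverse complement, so one strand covers both. No mismatch to the consensus was allowed. Pairs of half-sites with a gap of up to 13 bases occurred in 0.0731% of all windows and in 0 of the 11. Full sites with a mismatch, or outside the windows, would be missed, so this does not show that a gene lacks one. The stretches around the 5 matches follow, with the match in capitals, because they are the matches in the members. In normalized count, both irradiated libraries lay above the controls for 3 of these genes (Mdm2, Ccng1 and Ppm1d), against 22.1% of all genes tested. Both lay below them for Sesn1, against 19.9% of all genes, but not with library size alone as the scaling. For Trp53 the groups overlapped. A relation between matches and these directions was not tested. Trp73, which had the largest log2 fold change of the 10, had no match. They lie at chr10:117710910-117710969 (Mdm2, minus strand), chr11:40755437-40755496 (Ccng1, minus), chr11:85311097-85311156 (Ppm1d, plus), chr11:69580259-69580318 (Trp53, plus) and chr10:41887241-41887300 (Sesn1, plus). A match is a description of the letters and does not show binding.
Mdm2: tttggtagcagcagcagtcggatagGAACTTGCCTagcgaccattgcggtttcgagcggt
Ccng1: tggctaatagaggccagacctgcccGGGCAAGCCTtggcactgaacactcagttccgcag
Ppm1d: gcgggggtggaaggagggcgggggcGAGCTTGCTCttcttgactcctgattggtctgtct
Trp53: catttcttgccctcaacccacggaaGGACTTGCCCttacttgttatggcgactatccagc
Sesn1: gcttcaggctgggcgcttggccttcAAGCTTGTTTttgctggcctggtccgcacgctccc

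The estimated counts of the 4 libraries summed to between 33349456 and 37232823. All 12 oocyte markers had a TPM (a level corrected for transcript length and library total) above 1, with Dppa3 highest, and their summed TPM was 52248 and 52559 in controls and 51979 and 47238 in irradiated libraries. Of 14 granulosa and cumulus markers, 10 were in the deposited data, and 4 of these exceeded a TPM of 1 in any library. They were Cyp19a1 (mean TPM 9.53), Nr5a2 (3.53 to 7.43), Fshr (1.66 to 2.89) and Kitl (1.45 to 2.07). The others, Gja1 and Has2 among them, stayed at or below 0.31. The sum of the 10 was 16.8 and 19.1 in controls and 16.7 and 22.3 in irradiated libraries. Of 12 stromal, endothelial and blood markers, 5 were in the deposited data, and 1 exceeded a TPM of 1, Pecam1 (mean TPM 4.65). The sum of the 5 was 4.26 and 5.37 in controls and 4.38 and 6.33 in irradiated libraries. Both sums were highest in irradiated library 2, and their part in the results was not tested. This library also stood apart in scaling: its TMM factor (a library scaling from the bulk of genes) was 1.19 against 0.923 to 0.975 in the others, and 14122 genes had more than 3 counts there against 13650 to 13702. After TMM scaling, genes with a mean normalized count under 200 had a median log2 ratio of 0.13 between irradiated library 2 and irradiated library 1, and those of 2000 and over a median of -0.23. Ccng1, Trp73, Ppm1d, Chek2 and Sesn1 belong to the first group of genes, and Mdm4, Mdm2 and Rrm2b to the second, so values without this library are given beside results that rest on it. In libraries of pooled oocytes, fewer oocytes with a transcript and less of it per oocyte cannot be told apart.

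Per length, Mdm4 was by far the most abundant member, and the 3 family members lay below Mdm4, Mdm2 and Rrm2b. Mdm4 had a TPM of 605 and 580 in controls and 581 and 659 in irradiated libraries, which placed its mean at rank 251 of the 17374 genes. Mdm2 (49.3 and 50.2 in control, 69.3 and 83.2 in irradiated) and Rrm2b (58.7 and 61.0 in control, 46.3 and 39.4 in irradiated) came next, and their ranges over the 4 libraries overlapped. Trp53 followed at 13.4 to 20.03 and Trp63 at 4.30 to 6.44, each apart from its neighbours. The other 5 members, in the order of their means Ppm1d (mean TPM 2.40), Chek2 (1.49), Ccng1 (1.21), Sesn1 (0.895) and Trp73 (0.770), had ranges that overlapped from each to the next. Among the 3 family members the order of levels was therefore Trp53, Trp63 and Trp73, and it held in each of the 4 libraries.

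**Figure D1:**
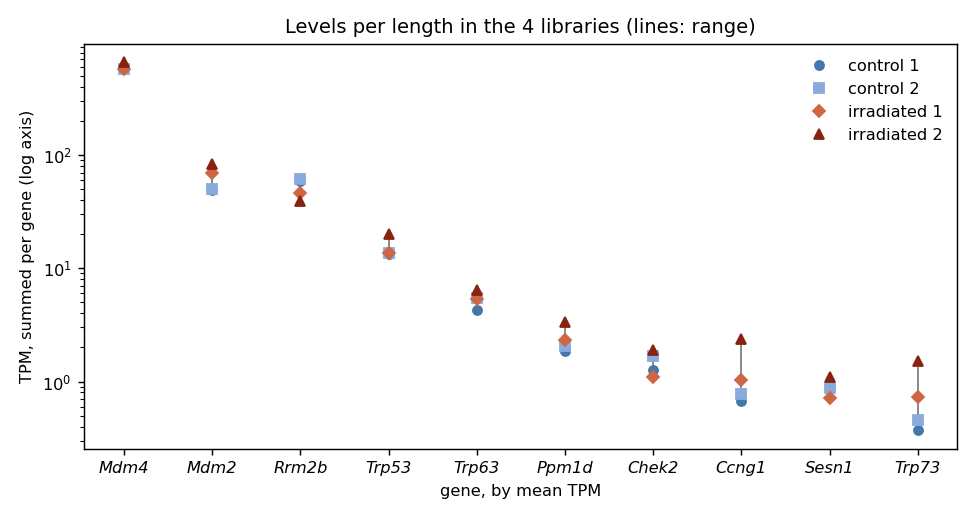
TPM summed per gene (log axis) in each of the 4 libraries for the 10 genes, ordered by mean TPM, with a line over the range. Mdm4 lies at 580 to 659, while Trp73 spans 0.37 to 1.52.

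The comparison of irradiated with control oocytes asks which transcripts differ in abundance 24 h after γ-irradiation. None of the 10 gene totals met the call limits (a log2 fold change beyond 2 in either direction with an adjusted p under 0.05, by the quasi-likelihood test of edgeR, Benjamini-Hochberg adjusted over 12569 genes), against 0.00796% of all genes tested. DESeq2, edgeR's exact test and limma-voom also called 0 of the 10. At an unadjusted p under 0.05, 2 of the 10 were higher in irradiated oocytes (Trp73 and Ccng1), against 4.63% of all genes, and 1 was lower (Rrm2b), against 1.3%. Both irradiated libraries lay above both control libraries in normalized count for 4 of the 10 (Trp73, Ccng1, Mdm2 and Ppm1d), against 22.1% of all genes, and below them for 2 (Rrm2b and Sesn1), against 19.9%. With library size alone as the scaling these counts were 4, against 26.9%, and 1 (Rrm2b), against 9.33%. The median log2 fold change of the 10 was -0.000565, beside 0.01 for all genes tested. With 2 libraries against 2, an exact two-sided permutation test of a single value cannot go below p = 0.333, so none was used.

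**Figure D2:**
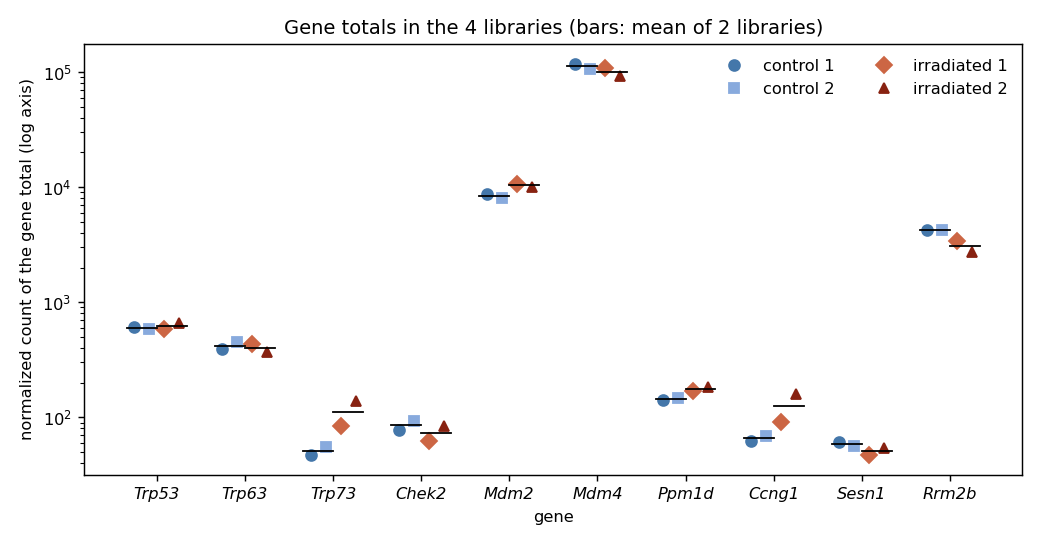
Normalized counts of the gene totals (log axis) in the 4 libraries for the 10 genes, with a bar at the mean of each condition (n = 2 libraries). For Trp73, Ccng1, Mdm2 and Ppm1d both irradiated libraries lie above both controls, and for Rrm2b and Sesn1 both lie below.

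Among the transcription factors of the family, Trp73 was the one with the largest difference. p73 is known for roles in neural development and in the spindle checkpoint of oocytes. Its normalized counts were 47.1 and 55.3 in controls and 84.0 and 139 in irradiated libraries, so the groups did not overlap. The mean was 51.2 ± 5.75 (SD, n = 2 libraries) in controls and 111 ± 38.6 (SD, n = 2) in irradiated oocytes, and the log2 fold change was 1.13 (standard error, SE, 0.2999, 95% interval 0.42 to 1.84, unadjusted p = 0.00714, adjusted p = 0.708 by edgeR). Without irradiated library 2, the highest of the 4, it was 0.72. The log2 ratio of irradiated library 2 to irradiated library 1 was 0.72, above the upper quartile of 0.47 for genes of this level.

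Trp53 and Trp63 differed by less than the spread between libraries. Trp53, the gene of p53 itself, had 605 and 585 normalized counts in controls and 589 and 653 in irradiated libraries. Both irradiated values lay above the lower control value, and the ranges overlapped. Its log2 fold change was 0.06 (SE 0.133, 95% interval -0.25 to 0.38, adjusted p = 0.880 by edgeR), and it was -0.01 without irradiated library 2. Trp63 had 389 and 448 normalized counts in controls and 435 and 367 in irradiated libraries, again with overlap. Its log2 fold change was -0.06 (SE 0.160, 95% interval -0.44 to 0.32, adjusted p = 0.898 by edgeR), and this sign turned with library size alone as the scaling (0.08), where the median of all genes was itself 0.17. The interval of Trp53 allows a change between 0.839-fold and 1.30-fold, and that of Trp63 between 0.736-fold and 1.24-fold.

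Chek2, the kinase upstream of TAp63, was a gene of low level. Its normalized counts were 77.9 and 93.2 in controls and 62.7 and 84.4 in irradiated libraries, with overlap between the groups. The fitted log2 ratio was -0.21 (SE 0.246, 95% interval -0.79 to 0.37, adjusted p = 0.795 by edgeR) and lay between -0.44 and -0.03 when each library was left out in turn.

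Both inhibitors of p53 were abundant, and the groups were apart for Mdm2 and overlapped for Mdm4. Mdm2 encodes the ubiquitin ligase that marks p53 for degradation and is itself a classical p53 target. It had 8652 and 8021 normalized counts in controls and 10679 and 10011 in irradiated libraries, a mean of 8337 ± 446 against 10345 ± 473 (SD, n = 2 each). The lower irradiated value exceeded the higher control value. In the fit this gave a log2 ratio of 0.31 (SE 0.168, 95% interval -0.09 to 0.71, unadjusted p = 0.106, adjusted p = 0.708 by edgeR), and it was 0.36 without irradiated library 2, so its size did not rest on that library. It depended on the scaling: with library size alone it was 0.47 (unadjusted p = 0.0166 by edgeR), beside a median of 0.17 for all genes, and on log2(TPM + 1) 0.60 (unadjusted p = 0.0132 by limma), beside a median of 0.14. Mdm4, a relative of Mdm2 that binds and silences p53 without being a strong ligase, had 118430 and 106533 normalized counts in controls and 108410 and 92862 in irradiated libraries. Irradiated library 1 lay between the controls. Its log2 fold change was -0.16 (SE 0.281, 95% interval -0.83 to 0.51, adjusted p = 0.857 by edgeR), and on log2(TPM + 1) it was 0.06.

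The other feedback genes were of low level. Ccng1 encodes cyclin G1, a p53 target that recruits a phosphatase to Mdm2. Its normalized counts were 62.5 and 68.3 in controls and 91.5 and 158 in irradiated libraries, with no overlap. The mean was 65.4 ± 4.07 (SD, n = 2 libraries) in controls and 125 ± 47.4 (SD, n = 2) in irradiated oocytes. On the log2 scale the difference was 0.94 (SE 0.3004, 95% interval 0.23 to 1.65, unadjusted p = 0.0166, adjusted p = 0.708 by edgeR) and 0.48 without irradiated library 2, a move by more than 1.5 times on the log2 scale. In irradiated library 2 Ccng1 was higher than in irradiated library 1 by 0.79 on the log2 scale. Ppm1d encodes WIP1, the phosphatase that resets ATM, CHK2 and p53 after damage. It had 141 and 147 normalized counts in controls and 168 and 184 in irradiated libraries, close pairs that did not overlap. Its log2 fold change was 0.29 (SE 0.179, 95% interval -0.14 to 0.71, unadjusted p = 0.151, adjusted p = 0.710 by edgeR), and 0.22 without irradiated library 2.

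Of the targets with a protective role, both were lower in irradiated libraries in normalized count, and for Sesn1 this depended on the scaling. Rrm2b encodes p53R2, the small ribonucleotide reductase subunit that supplies nucleotides for DNA repair and for mitochondrial DNA in cells that do not divide. It had 4228 and 4280 normalized counts in controls and 3373 and 2754 in irradiated libraries, a mean of 4254 ± 36.9 against 3064 ± 438 (SD, n = 2 each). The control libraries were close to each other, and both irradiated libraries lay below them. Irradiated over control, the log2 ratio was -0.47 (SE 0.158, 95% interval -0.85 to -0.10, unadjusted p = 0.0201, adjusted p = 0.708 by edgeR) and -0.33 without irradiated library 2. Irradiated library 2 lay below irradiated library 1 by a log2 ratio of -0.29, against the median of -0.23 for genes of this level. Sesn1 encodes sestrin 1, which restrains mTOR signalling under stress. It had 60.5 and 56.4 normalized counts in controls and 46.8 and 54.2 in irradiated libraries, lower without overlap, with a log2 fold change of -0.21 (SE 0.241, 95% interval -0.78 to 0.37, adjusted p = 0.795 by edgeR). On log2(TPM + 1) it was 0.01, and with library size alone as the scaling its groups overlapped.

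**Figure D3:**
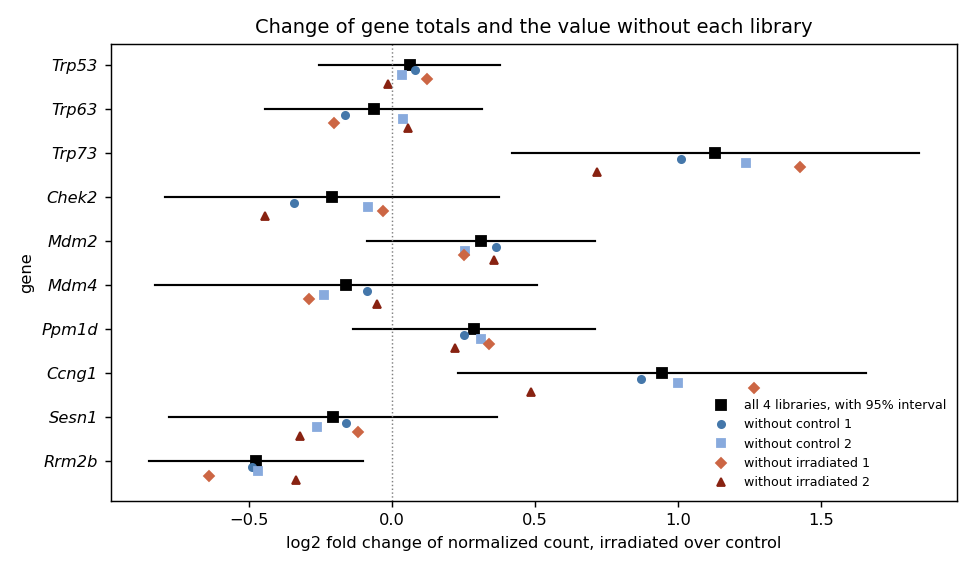
Log2 fold change of the normalized gene total, irradiated over control, for the 10 genes (black squares, with the 95% interval) and the values without each library (coloured points). The intervals of Trp73 (0.42 to 1.84) and Ccng1 (0.23 to 1.65) lie above 0 and that of Rrm2b (-0.85 to -0.10) below it, while the points without irradiated library 2 lie at 0.72, 0.48 and -0.33.

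Of the 38 listed transcripts of the members, 26 were curated (NM) and 12 predicted (XM) RefSeq models, and 24 passed the filter on low counts. None of the 24 met the call limits, against 0.0% of all 26645 transcripts tested by edgeR's quasi-likelihood test, where 1306 had an unadjusted p under 0.05. At an unadjusted p under 0.05, 3 of the 24 were higher in irradiated oocytes, against 2.73% of all transcripts, and 0 were lower. edgeR's exact test called 1 of the 24, NM_001126331.1 of Trp73, and 299 of all 26645 transcripts. DESeq2 and limma-voom called 0 transcripts of the members, beside 248 of 45505 and 0 of 26645 transcripts. The estimation divided reads between overlapping models, so a transcript value carries the error of that division, and several models at 0 in one library were well above it in the other library of the same condition.

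For Mdm2, 2 curated transcripts differed more than the gene total. Both NM_010786.4 and NM_001288586.2 are linked in GENCODE to one transcript, Mdm2-201. NM_010786.4 had 145 and 235 normalized counts in controls and 668 and 385 in irradiated libraries. The fitted log2 ratio was 1.47 (SE 0.417, unadjusted p = 0.0272, adjusted p = 0.786 by edgeR). NM_001288586.2 had 159 and 235 in controls and 451 and 384 in irradiated libraries. In the fit this gave a log2 ratio of 1.08 (SE 0.271, unadjusted p = 0.0183, adjusted p = 0.777 by edgeR). Neither overlapped between the groups, and without irradiated library 2 the log2 fold changes were 1.81 and 1.198.

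The predicted model XM_017313822.2 nevertheless held most of the reads of Mdm2, 96.5% and 94.0% in controls and 89.4% and 92.3% in irradiated libraries. Its normalized counts were 8282 and 7499 in controls and 9505 and 9377 in irradiated libraries. On the log2 scale the difference was 0.26 (SE 0.120, adjusted p = 1.0 by edgeR). It is the longer model, with 2.24 times as many counts per unit of TPM as NM_010786.4. The share of NM_010786.4 was 1.69% and 2.95% in controls and 6.28% and 3.78% in irradiated libraries, and both shares in irradiated oocytes exceeded both in control oocytes.

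Rrm2b divided between a curated and a shorter predicted model, and irradiated library 1 lay below both controls in each of them. XM_011245361.3, with 0.378 times the counts per unit of TPM of NM_199476.1, had 1743 and 1623 normalized counts in controls and 1209 and 433 in irradiated libraries. Both irradiated values were lower, and irradiated library 2 lay far below irradiated library 1. Irradiated over control, the log2 ratio was -1.04 (SE 0.544, adjusted p = 1.0 by edgeR) and -0.48 without irradiated library 2. The curated NM_199476.1, described here after its values were seen, had 2382 and 2588 in controls and 2124 and 2351 in irradiated libraries. The fitted log2 ratio was -0.15 (SE 0.116). Its share of the gene was 56.8% and 60.8% in controls and 63.3% and 84.1% in irradiated libraries.

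For Trp63, transcripts of both starts were present in all 4 libraries. The starts lie 118151 bases apart, and the first coding exons are those printed above. The 3 TA transcripts summed to 186 and 305 normalized counts in controls and 238 and 191 in irradiated libraries, and the 4 ΔN transcripts to 102 and 44.2 in controls and 80.4 and 118 in irradiated libraries. Both sums overlapped between the groups. The TA start took 48.1% and 68.5% of the reads in controls and 55.0% and 51.2% in irradiated libraries, while XM_006522002.1, which could not be matched to a start, took between 17.1% and 26.4%. The transcript with the highest TPM was NM_001127261.1, 1 of the 3 TA transcripts. It had 79.3 and 148 normalized counts in controls and 157 and 104 in irradiated libraries. In the fit this gave a log2 ratio of 0.20 (SE 0.452, adjusted p = 1.0 by edgeR). Among the reads assigned to a start, leaving out the unmatched model, TA reads outnumbered ΔN reads in each library. The groups overlapped for the TA and ΔN sums and for NM_001127261.1. NM_001127259.1, the TA transcript with the longest coding sequence, is described here after its values were seen. It had 107 and 157 normalized counts in controls and 81.5 and 15.7 in irradiated libraries, without overlap. Its log2 fold change was -1.44 (SE 0.898, unadjusted p = 0.188 by edgeR). The remaining TA transcript, NM_001127260.1, had 70.8 in irradiated library 2 and 0 elsewhere. Most of the sequence of the models is shared, so the split between starts rests on the reads that fall in the first exons.

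The reads of Trp73 in control oocytes were all assigned to one ΔN-start transcript, and in irradiated oocytes they were spread over 3. NM_001126330.1 had 46.8 and 55.0 normalized counts in control but 0 and 111 in irradiated libraries. NM_001126331.1 had no read in either control library, against 57.2 and 29.7 normalized counts in irradiated libraries, at least 13.8-fold higher against a floor of 3 counts per library (unadjusted p = 0.00825, adjusted p = 0.777 by edgeR, and 0.0284 by its exact test). XM_006538721.3 had 26.5 normalized counts in irradiated library 1 and none elsewhere. As NM_001126330.1 was at 0 in one irradiated library and highest in the other, the division among these models varied within a condition as much as between conditions. Over the ΔN-start transcripts together, normalized counts were 46.8 and 55.0 in controls and 57.2 and 141 in irradiated libraries. No listed transcript was matched to the TA start of Trp73.

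In Trp53, Mdm4 and Sesn1 one transcript held most of the reads. NM_011640.3 took 75.1% and 81.1% of Trp53 in controls and 74.6% and 80.5% in irradiated libraries, with a log2 fold change of 0.07. NM_001302802.1 took between 57.8% and 59.0% of Mdm4 in the 4 libraries, with a log2 fold change of -0.15, the steadiest division among the members with several transcripts above 10% of the gene. NM_001013370.2, which starts at the downstream site of Sesn1, took 91.7% to 100% of its reads (log2 fold change -0.25), and Ccng1 and Ppm1d each had a single listed transcript. For Chek2, XM_006535069.2 had 71.2 and 42.0 normalized counts in controls and 22.2 and 46.3 in irradiated libraries, with overlap and a log2 fold change of -0.72 (SE 0.629, adjusted p = 1.0 by edgeR), against -0.21 for the gene total. Its share of the gene ran from 34.98% to 92.2%. NM_016681.4, described after its values were seen, had 0 and 24.8 normalized counts in controls and 40.2 and 39.3 in irradiated libraries, with a log2 fold change of 1.68 (SE 1.99, adjusted p = 1.0 by edgeR), so these Chek2 models differed in opposite directions within wide errors.

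**Figure D4:**
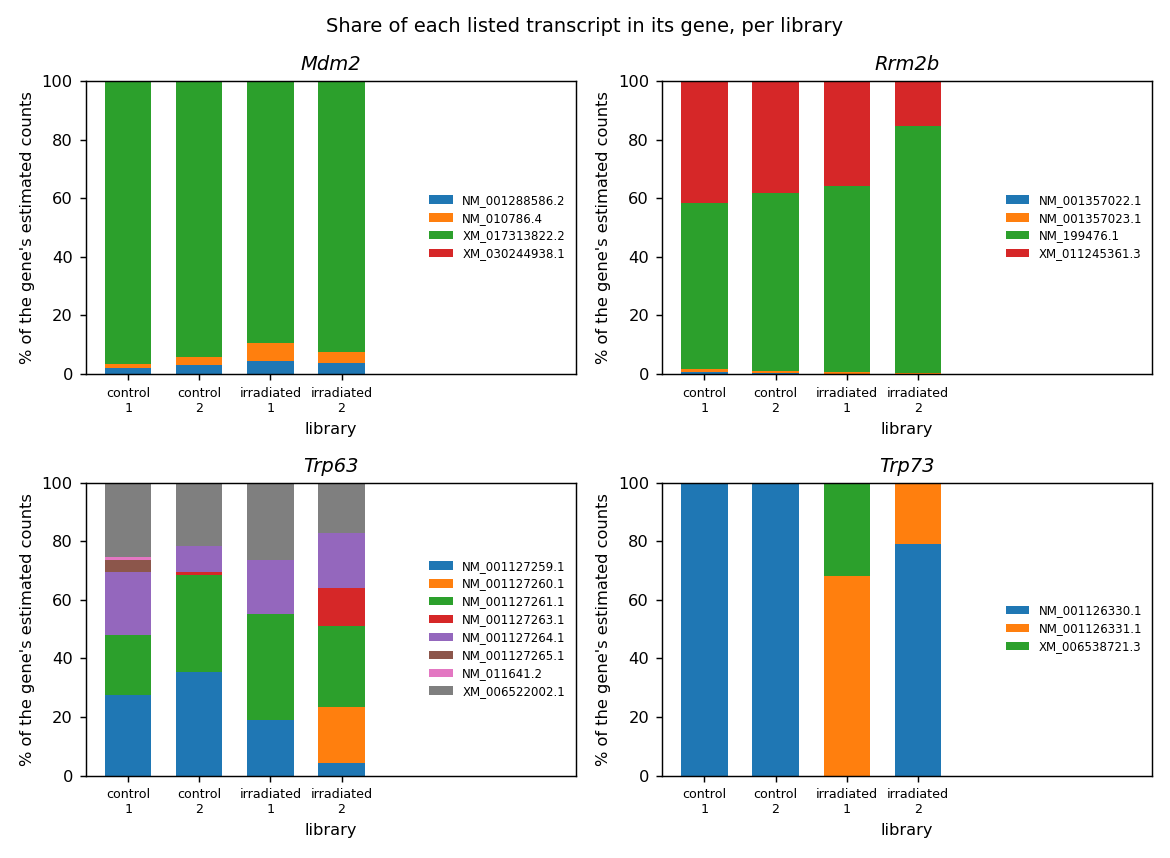
Share of the estimated counts of Mdm2, Rrm2b, Trp63 and Trp73 assigned to each listed transcript (% of the gene, stacked bars) in the 4 libraries. XM_017313822.2 holds 89.4% to 96.5% of Mdm2, NM_199476.1 of Rrm2b reaches 84.1% in irradiated library 2, and the division of Trp73 differs between the 2 irradiated libraries.

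Isoform usage, the share each transcript takes of its gene, could be tested for 7 of the 10 genes. By edgeR's diffSpliceDGE with Simes' method, 0 of the 7 had an adjusted p under 0.05, against 0.253% of 6323 genes, and 0 had an unadjusted p under 0.05, against 6.12% of these genes. Mdm2 had the smallest unadjusted value (edgeR, unadjusted p = 0.0690, adjusted p = 1.0). The gene-level F test gave an unadjusted p under 0.05 for 1 of the 7 (7.97% of all genes) and limma's diffSplice for 2 (7.99% of all genes), none with an adjusted p under 0.05.

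Other targets of p53 were followed as a list of 32 genes. Of these, 30 were in the deposited data and 25 were tested, and 0 were called by edgeR. At an unadjusted p under 0.05, 2 were higher and 0 lower, which is 8% of the list against 5.93% of all genes. The median log2 fold change was 0.15, and 17 of the 25 (68.0%) were higher, against 51.4% of all genes. Sfn (14-3-3σ, a G2 checkpoint protein) had 52.3 and 63.9 normalized counts in controls and 81.9 and 139 in irradiated libraries. On the log2 scale the difference was 0.94 (SE 0.308, unadjusted p = 0.0187, adjusted p = 0.708 by edgeR) and 0.4972 without irradiated library 2. Gtse1, which binds p53 in G2, had 513 and 563 in controls and 723 and 655 in irradiated libraries. Irradiated over control, the log2 ratio was 0.36 (unadjusted p = 0.0355). Both genes were higher without overlap. The 3 with the highest TPM were Psrc1, Tigar and Bax, with log2 fold changes of 0.39, 0.16 and -0.05, which were 0.12, -0.05 and 0.34 without irradiated library 2. Some of the best-known targets, named after their values were seen, had few reads. The cell cycle inhibitor Cdkn1a (p21) had 21, 19, 16 and 27 estimated counts in control 1 and 2 and irradiated 1 and 2, and the death genes that p53 family proteins induce, Bbc3 (PUMA) and Pmaip1 (NOXA), had at most 3 and 7 counts in any library.

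Upstream kinases and break sensors, 30 genes that were all in the table and tested, included 0 called genes. At an unadjusted p under 0.05, 3 were higher and 0 lower, 10% of the list against 5.93% of all genes. The median log2 fold change was 0.04. H2ax, the histone variant phosphorylated at breaks, had 758 and 928 normalized counts in controls and 970 and 1927 in irradiated libraries. The fitted log2 ratio was 0.78 (SE 0.304, unadjusted p = 0.0372) and 0.20 without irradiated library 2. Plk1, the kinase that ends the G2 checkpoint, had 1748 and 2090 in controls and 2239 and 3633 in irradiated libraries (log2 fold change 0.61, unadjusted p = 0.0372, and 0.22 without irradiated library 2). For both, irradiated library 1 was close to control library 2, and the difference lay mostly in irradiated library 2. Trp53rkb, a kinase named for p53, had 146 and 176 in controls and 215 and 232 in irradiated libraries (log2 fold change 0.48, unadjusted p = 0.0355 by edgeR). Its relative Trp53rka had 166 and 182 in controls and 205 and 270 in irradiated libraries (log2 fold change 0.45, unadjusted p = 0.0568 by edgeR). The estimated counts of both were fractional, so their values may carry the error of dividing reads. By level, Chek1 (mean TPM 202) far exceeded Chek2 (mean TPM 1.49), and its log2 fold change was -0.44 (unadjusted p = 0.138) and -0.14 without irradiated library 2, with 18346 and 19901 normalized counts in controls and 17395 and 10808 in irradiated libraries. Csnk1e, a casein kinase 1 isoform and the third by level after Plk1, had a log2 fold change of 0.03.

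Regulators of the p53 and p63 proteins numbered 29 in the table, of which 26 were tested and 0 called. The median log2 fold change was 0.03. At an unadjusted p under 0.05, 0 were higher and 1 lower, 3.85% of the list against 5.93% of all genes. The one was Ep300, an acetyltransferase coactivator of p53, with 142 and 143 normalized counts in controls and 115 and 81.8 in irradiated libraries (log2 fold change -0.54, SE 0.227, unadjusted p = 0.0482, adjusted p = 0.708 by edgeR, and -0.31 without irradiated library 2). The 3 with the highest TPM were the ribosomal proteins Rpl5 and Rpl11, which bind Mdm2, and the ligase Rchy1, with log2 fold changes of -0.44, -0.33 and 0.03. For Rpl5 and Rpl11 irradiated library 2 was the lowest of the 4 (37621 and 2543 normalized counts), and without it their log2 fold changes were -0.08 and -0.05. Without irradiated library 1, the count of genes with an unadjusted p under 0.05 was 10, 18 and 14 in the 3 lists, in a fit where 41.5% of all genes had one. Without irradiated library 2 the median log2 fold changes of the 3 lists were 0.11, 0.08 and 0.007.

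**Figure D5:**
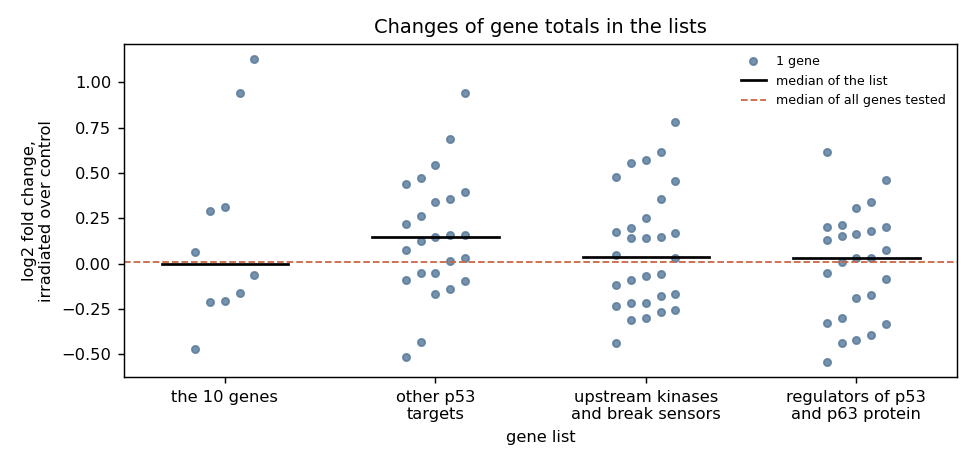
Log2 fold change of gene totals, irradiated over control, for the 10 genes and the tested genes of the 3 lists (points), with the median of each list (black bars) and of all genes tested (dashed line). The medians lie at -0.000565, 0.15, 0.04 and 0.03, beside 0.01 for all genes.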

How the data were processed

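RNA-seq of oocytes was analysed in 2 control and 2 irradiated libraries, grouped by their titles. Per the labels the processing used HISAT2, Bowtie2, RSEM and the mm10 build, and the paper's methods name Bowtie2 and GRCm38. The authors deposited an estimated count per RefSeq transcript, without scaling for library size, and TPM values, which also correct for the length of each transcript. The 4 FPKM columns and 6 columns of averages, 10 in all, were not used. The members and lists were chosen with earlier results of these data known.

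Genes were matched to RefSeq (GRCm38.p6) by gene ID (17323 of 17374). Estimated counts, summed per gene or kept per transcript and rounded, went into edgeR 4.0.16 under R 4.3.3, filtered by filterByExpr (minimum count 10), scaled by TMM and tested with glmQLFit and glmQLFTest, with p-values adjusted by Benjamini-Hochberg over every feature tested. Following the paper's methods, features were called at a log2 fold change beyond 2 in either direction with an adjusted p under 0.05. Normalized counts are counts scaled by TMM-adjusted library size. Isoform usage was tested with diffSpliceDGE. Counts up to 3 were the floor for lower bounds, which cover counting error only. The scripts were tested on simulated data. DESeq2 1.42.0, limma 3.58.1 on TPM or voom values, edgeR's exact test, other scalings, filters, a replicate block and leaving out each library were alternatives. p-values rest on the spread between 2 libraries a condition, described in the paper as separate experiments. In the edgeR fits the spread of each feature was estimated with information shared across all features tested.

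Named were all 10 members, for each its transcript with the highest mean TPM and any with an unadjusted p under 0.05, and from each list the genes with an unadjusted p under 0.05 (at most 5) and the 3 with the highest mean TPM. Of the 38 member transcripts, 24 were linked to GENCODE vM21 for start sites. Promoter windows were RefSeq's. Figures were drawn with matplotlib 3.10.9.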

Additional observations from a re-analysis of the deposited data

How the results depend on the processing

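No member was called under any alternative, and Trp73, Ccng1, Mdm2 and Ppm1d stayed higher and Rrm2b and Chek2 lower in log2 fold change under each of them. Library size alone moved the median log2 fold change of all genes from 0.01 to 0.17, log2(TPM + 1) to 0.14 and log2(TPM + 0.1) to 0.21. Relative to zero, Trp63 turned from -0.06 to 0.0822 with library size alone, to 0.24 on log2(TPM + 1) and to 0.28 on log2(TPM + 0.1), Mdm4 to 0.0632 and 0.0633 on these TPM scales, and Sesn1 to 0.00763 and 0.00134. In fits that each left out 1 library, which leaves 1 library in its condition that is assumed to vary like the others, Trp53 ranged from -0.0137 to 0.12, Trp63 from -0.20 to 0.0571, Trp73 from 0.72 to 1.43, Ccng1 from 0.48 to 1.26, Mdm2 from 0.25 to 0.36 and Rrm2b from -0.64 to -0.33. The number of members with an unadjusted p under 0.05, 3 here, ranged from 2 to 5 in these fits and reached 4 on log2(TPM + 0.1). Without irradiated replicate 1, Rrm2b, Trp73, Ccng1 and Mdm2 had adjusted p of 6.74e-10, 4.12e-08, 1.74e-07 and 0.0302 by edgeR, and Mdm2 had 0.0306 without irradiated replicate 2, none beyond the fold limit. In these fits 41.5% and 10% of all genes had an unadjusted p under 0.05, against 5.93% with all libraries. Mdm2 was 0.47 with library size alone and 0.60 and 0.61 on the TPM scales.

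Gene totals called over all genes were 1, 0 with library size alone, limma-voom and both TPM scales, 3 without a filter, 4 by DESeq2, 10 by the exact test, 7 with a replicate block, and 16 to 84 with a library left out, the last without irradiated replicate 1, where the spread rested on the control libraries. Same-numbered libraries did not deviate together (correlation 0.0592 over genes and 0.0146 over transcripts), so the replicate block rests on a shared number only, and it called 0 members. Transcripts called were 0, 248 of 45505 by DESeq2 and 299 of 26645 by the exact test, which called 1 member transcript. Genes with an adjusted p under 0.05 for isoform usage were 16, 8 without a filter, 58 by the F test, 3 with the replicate block, 0 by limma diffSplice and 1 to 29 with a library left out.

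Among named transcripts, NM_011640.3 of Trp53 ranged from -0.0756 to 0.20 and NM_001127261.1 of Trp63 from -0.18 to 0.72 with a library left out. NM_001126330.1 of Trp73 turned from 0.13 to -2.16 by limma-voom, -0.52 on log2(TPM + 0.1) and -2.08 with the replicate block, and ranged from -8.60 to 1.11 with a library left out. NM_001302802.1 of Mdm4 was 0.0623 and 0.0625 on the TPM scales.

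With library size alone, the median log2 fold changes of other p53 targets, upstream kinases and regulators were 0.31, 0.19 and 0.19, and the last was 0.00675 without a filter. With a library left out they ranged from 0.11 to 0.16, -0.0379 to 0.0849 and -0.0118 to 0.0648, and the genes with an unadjusted p under 0.05 numbered 0 to 10, 0 to 18 and 0 to 14. Without a filter these numbered 5 kinases and 2 regulators, and 0 regulators with library size alone. Members below both controls without overlap numbered 2, and 1 with library size alone, an alternative chosen after seeing the data. Counts under 100 in 4 of the 10 gene totals of control oocytes limit what can be said of Trp73, Ccng1, Chek2 and Sesn1.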
